A study of Mus musculus with 4 samples.

Results

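Bone marrow-derived macrophages (BMDMs) that lack Lamtor1 were compared with wild-type BMDMs after stimulation with interleukin 4 (IL-4), on 1 microarray each out of the 4 arrays of the series. A gene was measured where its brightest probe was called well above background by the scanner software on both arrays, which held for 13971 of the 23333 genes with a symbol on the array. Among these, 2180 genes (15.6%) differed by 2-fold or more and form the set described here. They comprised 1079 genes that were lower (7.72% of those measured) and 1101 genes that were higher (7.88%) in Lamtor1-deficient BMDMs. The third array, of wild-type BMDMs that received the mTOR inhibitor Torin1 together with IL-4, served to single out the genes that the drug left within 2-fold. There were 806 of those, 5.88% of the 13702 genes measured on all 3 arrays, and a further 148 (1.08%) moved 2-fold in the opposite direction with Torin1.

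All cells came from 10-week-old C57BL/6J mice. Bone marrow was grown for 6 days in supernatant of L929 cells, a source of macrophage colony-stimulating factor, and the resulting BMDMs were then kept for 2 days with 50 ng/ml IL-4, the stimulus of the M2 state. The labels give the genotypes as wild type and as p18 (2400001E08Rik) -/-, both older names of Lamtor1. According to the methods, the knockout was conditional. Lamtor1 flox/flox mice carried 1 LysM-Cre allele, which is active in myeloid cells, so the deletion relied on Cre activity in the cultured cells, and the strain had been backcrossed to C57BL/6J. Littermates with the floxed alleles and no Cre were the study's usual controls, but the label of the control array says only wild type. Torin1 was present at 250 nM. The fourth array, of wild-type BMDMs given interferon-γ and lipopolysaccharide (M1), is used below for a single value.

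Lamtor1 is the lipid-anchored subunit of the Ragulator, a scaffold on the outer face of the lysosome that holds the Rag GTPases and, when amino acids are plentiful, recruits the kinase complex mTORC1. Active mTORC1 promotes protein, lipid and nucleotide synthesis, in part through the transcription factors SREBP and ATF4, and it keeps TFEB and its relatives, the activators of lysosomal genes, out of the nucleus. In macrophages, IL-4 acts through STAT6 to induce chitinase-like proteins, lectins and other genes of the M2 state. Torin1 blocks the kinase of both mTOR complexes directly, without the Ragulator being removed.

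The values below are processed signals in arbitrary units, given in the order wild type, then Lamtor1-deficient, and they compare only arrays, never probes of different genes. Ratios were taken after each array had been shifted to its 75th percentile, which was 595 for the wild-type and 536 for the Lamtor1-deficient array, so a fold is slightly larger or smaller than the quotient of the signals shown. Each condition had a single array. No test was possible, no value carries a standard deviation, and a ratio compares these cultures rather than the genotypes. Repeated spots of the same probe put the technical standard deviation of a log2 ratio at 0.088 for probes well above background. Over all measured genes the log2 ratio of Lamtor1-deficient over wild type had a median of 0.09 and quartiles of -0.27 and 0.41. Both this ratio and that of Torin1 have the wild-type IL-4 array as denominator, so the 2 ratios share its errors and are given only side by side. With Torin1, 13.2% of the 13702 genes measured on all 3 arrays were 2-fold lower and 11.7% were 2-fold higher. Where several probes of a gene were measured (447 of the 2180 genes), all of them passed 2-fold the same way for 284 genes, and for 41 genes a probe had the opposite sign.

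Lamtor1 itself fell from 39460.2 to 833, a 42.7-fold drop that left the probe well above background, and was 35232 with Torin1. Which exons were removed is not given in the sources used here, so whether the probe lies inside the deletion is not known. Transcripts of the other Ragulator subunits did not follow. Lamtor2 (on the array as Robld3) had a log2 ratio of 0.65, Lamtor3 (Mapksp1) of 0.96, Lamtor4 (0910001L09Rik) of 0.12 and Lamtor5 (Hbxip) of 0.46, all within 2-fold. In the list of Ragulator, Rag GTPase and mTORC1 genes, 32 of 33 were measured, 2 fell and 5 rose, and the median log2 ratio was 0.26. Rragd, a Rag GTPase of the complex that binds mTORC1, rose most in the list, from 37.6 to 318 (9.37-fold). Fnip2, a partner of folliculin, which acts on the Rag GTPases, rose from 7438 to 28207 (4.21-fold). Its relative Fnip1 (2.04-fold), the arginine sensor Castor1 (Gatsl3, 2.17-fold) and Tsc1 (2.30-fold), a subunit of the complex that restrains the mTORC1 activator Rheb, completed the rises. Besides Lamtor1, the list's fall was Sesn3, a stress-induced sestrin, from 114 to 47.0. Mtor and Rptor, the kinase and its mTORC1 partner, had log2 ratios of 0.38 and 0.05. With Torin1, 4 of these 7 genes moved 2-fold the same way, and Tsc1 had a log2 ratio of 0.98.

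Macrophage markers were present on both arrays. Csf1r, the receptor for the growth factor of these cultures, gave 288639.5 and 191644 (log2 ratio -0.44), the lysosomal glycoprotein Cd68 gave 29157 and 38586, and the transcription factor Spi1 (Sfpi1) gave 2499 and 1739.6, each within 2-fold. None of the 17 measured markers rose and 4 fell (23.5% past 2-fold, beside 7.72% of all genes lower), with a median of -0.37, and 6 fell when the median over a gene's probes was taken. The 4 were Emr1, the gene of the F4/80 antigen, from 66408 to 10069, the high-affinity Fc receptor Fcgr1 from 3091 to 89.5, Aif1 from 39319.7 to 1924, and Cd14 from 12120.5 to 3014. In RNA of whole cultures, fewer cells of a type and less of its RNA per cell cannot be told apart. Among markers of other cells, those of neutrophils stood out, with 8 of 11 measured genes lower, none higher and a median log2 ratio of -2.21. S100a9 fell from 38844 to 1315 and Ltf, a granule protein, from 2996 to 73.1. The summed signal of the 17 markers on the array was 116553 on the wild-type and 51026 on the Lamtor1-deficient array. Of those 17, 4 were measured on the wild-type array alone and 2, Cxcr2 and Prtn3, on the Lamtor1-deficient array alone, at least 1.42-fold and 1.30-fold higher. Fibroblast markers went the other way in part. Dcn rose from 941 to 3194, Thy1 from 121 to 435, and Pdgfra and Cxcl12 also rose, while Postn fell and the collagens Col1a1, Col1a2 and Col3a1 stayed within 2-fold, with a summed signal over 13 genes of 40512 and 41920.3. Of 19 lymphocyte markers, Ms4a1, Pax5 and Klrb1c were well above background on neither array, Cd79a was lower, Lck and Gzmb were higher, and 4 were measured on the Lamtor1-deficient array alone. Dendritic cell markers gave 1 rise among 5 measured, mast cell, basophil and eosinophil markers 1 fall and 2 rises among 5, and erythroid and megakaryocyte markers 3 falls among 5. The part of these cells in the results below was not tested. Housekeeping genes showed no 2-fold change in 15.

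**Figure D1:**
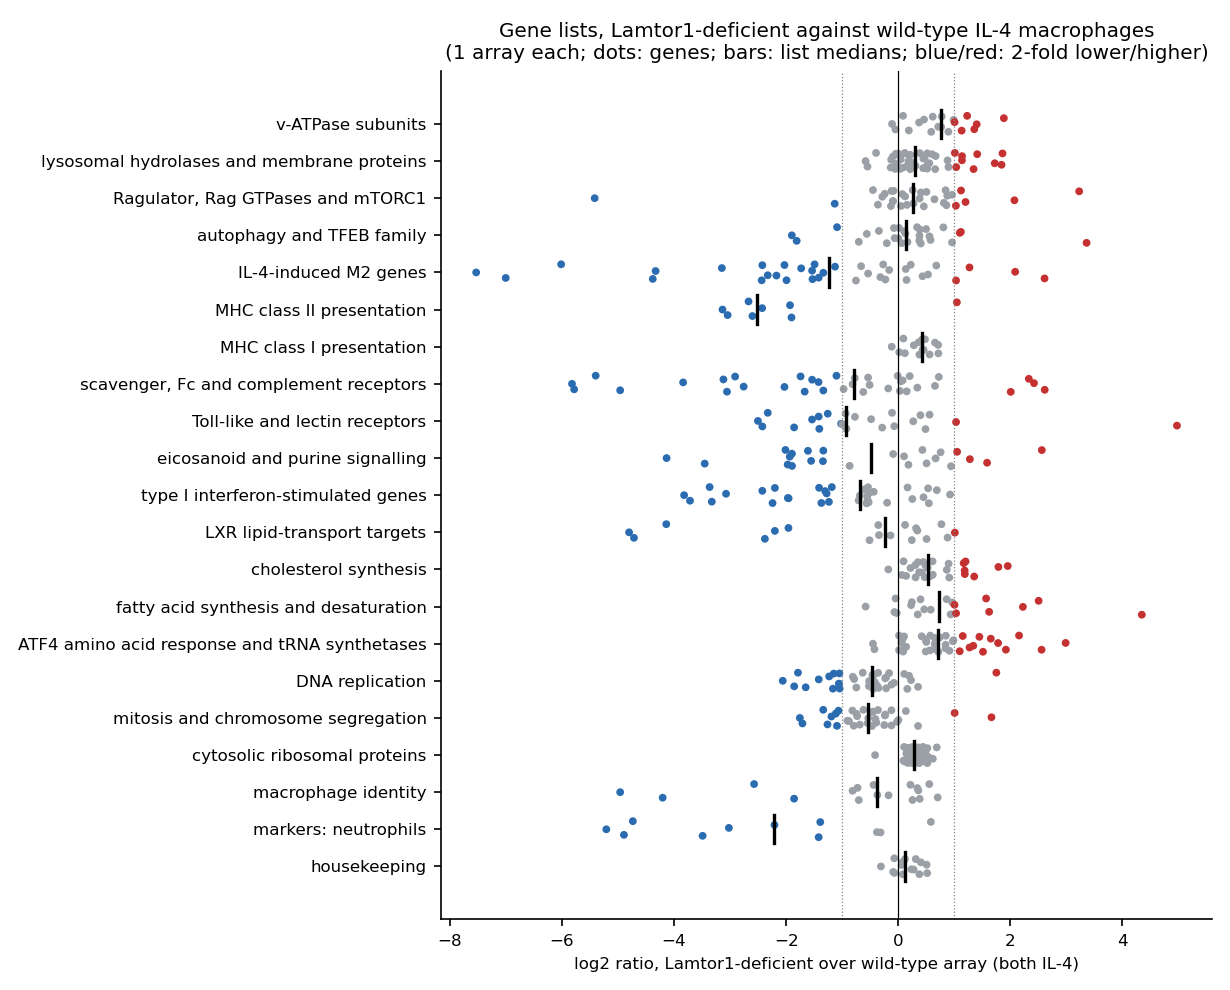
Log2 ratio of the Lamtor1-deficient over the wild-type array (both IL-4) for genes of the main lists, with 1 array per condition. Each dot is a gene measured on both arrays, blue where 2-fold lower, red where 2-fold higher and grey otherwise, black bars are list medians, and the dotted lines mark 2-fold. The M2, MHC class II and neutrophil lists lie to the left, the v-ATPase, lipid synthesis and ATF4 lists to the right.

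Among genes measured on both arrays, eosinophil-associated ribonucleases had the largest falls, with Ear12 falling from 89899.9 to 431 (188-fold), Ear1 from 69670.0 to 339.9 (185-fold) and Ear2 from 202375 to 1422 (128-fold). Members of this family are nearly identical in sequence, so the probes may read each other's transcripts and the 3 values may not be separate observations. Tgfbi, a matrix protein induced by TGF-β, fell from 28315 to 265 (96.2-fold), and the plexin-domain protein Plxdc2 from 129008 to 1519.8 (76.5-fold). Other large falls were those of receptors. Fcrls, an Fc receptor-like gene, fell 63.0-fold, the complement receptor C5ar1 56.5-fold, the scavenger receptor Stab1 55.0-fold, and the lectin Clec4b1 43.7-fold, while the chemokine receptor Ccr2 fell from 1342 to 31.0. The amino acid transporter Slc36a2, the complement component C1qa, the granule protein Ltf and Piwil2 fell between 35.8-fold and 55.2-fold. These 14 genes were all lower with Torin1 too, Ccr2 and Piwil2 to signals not well above background. For C5ar1 and Stab1 the Torin1 ratios, -2.90 and -2.59 on the log2 scale, were nearer 0 than the ratios of -5.82 and -5.78 for Lamtor1 loss.

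The largest rise among genes measured on both arrays was that of a hormone enzyme. Dio2, the deiodinase that activates thyroid hormone, rose from 129.5 to 165869, 1421-fold, and was 86972 with Torin1. Cdkn1c, the cyclin-dependent kinase inhibitor p57, rose from 521 to 220066 (469-fold). Rbp4, the plasma carrier of retinol, rose from 408 to 238530.5 (648-fold) and was 3424 with Torin1. The secreted Wnt modulator Sfrp5 rose 493-fold from 31.9, a signal near the lowest of any probe called well above background (21.6 on that array). Mcoln3, a cation channel of the endolysosomal TRPML family, rose 172-fold, its probes ranging from 3.74 to 7.43 on the log2 scale, and the small GTPase Rab15 216-fold, with probes from 0.61 to 7.76. Mgll, the lipase that splits monoacylglycerols, rose from 1545 to 153540.1 (110.2-fold). The orphan receptor Gprc5b rose from 164 to 13515 (91.3-fold), with another probe at 4.90 on the log2 scale. Nos2, the inducible nitric oxide synthase of the M1 state, rose from 228 to 9999 (48.6-fold). The inhibitory receptor Cd300lf, the adaptor Card14, the kinesin Kif1a, the sulfurtransferase Tst and C77080 rose between 41.9-fold and 69.8-fold. The probes of Cd300lf ranged from 3.24 to 5.39 on the log2 scale. Igh-VJ558, an immunoglobulin variable-region family, rose from 26.9 to 3357 and was not well above background with Torin1. All but Igh-VJ558 were 2-fold higher with Torin1 as well, and of these all except Gprc5b and Tst rose by less with the drug. The log2 ratios with Torin1 were 3.41 for Rbp4, 3.46 for Sfrp5 and 1.77 for Rab15 beside 9.34, 8.95 and 7.76 after Lamtor1 loss.

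**Figure D2:**
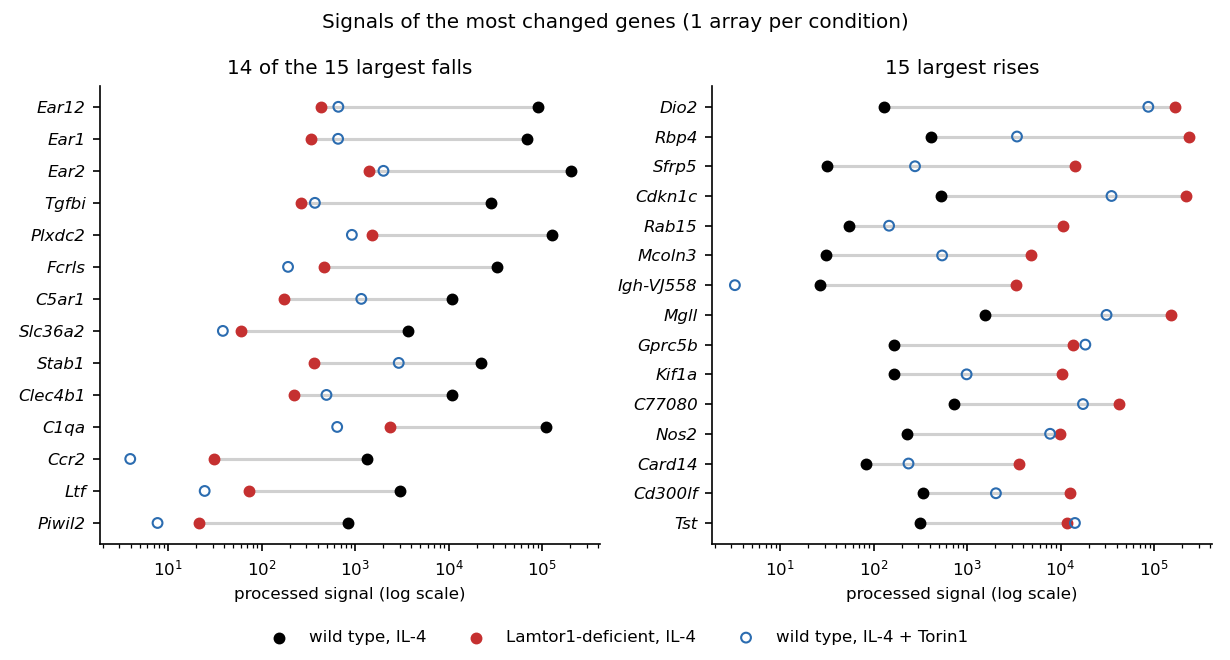
Processed signal on a log scale for 14 of the 15 largest falls (left) and 15 largest rises (right) among genes measured on both arrays, with 1 array per condition. Black points are wild type with IL-4, red points Lamtor1-deficient with IL-4 and open blue circles wild type with IL-4 and Torin1. Rbp4 and Sfrp5 show red points far to the right of the blue circles, Ear12 shows both far left of the black point.

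Some genes were measured on 1 array only and have a bound instead of a ratio. On the wild-type array alone there were 759, of which 353 were at least 2-fold lower after Lamtor1 loss, and on the Lamtor1-deficient array alone 701, of which 375 were at least 2-fold higher. Trim12a fell at least 243-fold from 5399, the chemokine receptor Ccr3 at least 66.8-fold from 1552, the hormone resistin (Retn) at least 65.8-fold from 1513, Ccdc74a at least 71.4-fold and the corepressor Hr at least 48.9-fold. Upward, the melanosome-transport gene Mreg reached 2973 (at least 152-fold higher), the chemokine receptor Cxcr1 2005 (at least 103-fold), the lipid kinase Pik3c2g 1936 (at least 99.3-fold) and the adrenergic receptor Adra2c 1638 (at least 84.0-fold). Pik3c2g and Adra2c were not well above background with Torin1. At the 2-fold limit itself, Ndfip2, Tcn2, Crip2 and Acd lay just inside, and Tlr4, Stap1, Dgat1 and Bid just outside, with folds that round to 2.00. Of the 16251 probes for long intergenic noncoding RNAs, 4765 were well above background on both arrays. Among them 419 were 2-fold lower (8.79%) and 218 were 2-fold higher (4.58%) in Lamtor1-deficient BMDMs, beside 7.72% and 7.88% of genes.

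A minority of lysosomal genes rose and none fell. In the v-ATPase, the proton pump that acidifies the lysosome and with which the Ragulator interacts, 6 of 19 subunits rose (31.6%) and none fell. Among all measured genes 7.88% were higher. Of the 19 subunits 17 lay above 0, and the median log2 ratio was 0.77. The 6 rises became 4 with quantile normalization and 1 at 3-fold. Atp6v1c1 rose from 13306 to 44264 (3.69-fold), Atp6v0d1 from 19767 to 46983 (2.64-fold) and Atp6v1g1 from 37319.5 to 86103 (2.56-fold). Atp6v1f, Atp6v1d and Atp6v0c followed, so the rises came from the membrane sector (V0) and from the catalytic sector (V1). With Torin1 the 19 subunits had a median of 0.47, with 1 fall and 1 rise. Of the 6 that rose after Lamtor1 loss, 5 were within 2-fold with Torin1, beside 37.0% of all changed genes. Atp6v1c1 rose with both (log2 ratio 1.61 with Torin1). Of 45 lysosomal hydrolases and membrane proteins, all measured, 9 rose (20%) and none fell (median 0.31). The 9 rises became 3 at 3-fold. Ctsa, the carboxypeptidase that protects the lysosomal galactosidase and sialidase, rose from 93861 to 307020.5 (3.63-fold), and Gaa, which breaks down glycogen, from 30507 to 98606 (3.59-fold). Naglu, an enzyme of heparan sulfate breakdown, rose from 14014 to 41649 (3.30-fold), and the lysosomal calcium channel Mcoln1 from 13025 to 31164 (2.65-fold). Galns, Smpd1, Gpnmb and the cholesterol exporter Npc1 rose between 2.01-fold and 2.54-fold. Most cathepsins did not pass. Ctsb, Ctsl, Ctss and Ctsd had log2 ratios of 0.18, -0.04, 0.08 and 0.60. Torin1 raised 6 of these 9 genes 2-fold, and Naglu, Smpd1 and Galns were within 2-fold, Galns at -0.72.

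TFEB and its relatives bind a palindrome called the CLEAR element, searched here on both strands as TCACGTGA in windows from 250 bases before to 50 bases after the start of each gene. RefSeq promoters of this kind (GRCm38.p6) were at hand for 10591 of the 13971 measured genes, and 2.06% of them held the motif. It was found in 0.26% of the promoters of genes that fell, 2.55% of those that rose, 3 of 13 in the v-ATPase list (23.1%) and 4 of 36 in the lysosomal list (11.1%). Among members that rose and had a window, 1 of 4 v-ATPase genes and 2 of 6 lysosomal genes held it. A match describes letters in a window and no binding was measured. The windows of 3 lysosomal genes that rose are shown because they hold the element, which is in capitals. That of Ctsa (chr2:164833523-164833822, plus strand) has 2 copies, that of Mcoln1 (chr8:3500269-3500568, plus strand) 1, and that of Atp6v0d1 (chr8:105566015-105566314, minus strand) 1.
Ctsa: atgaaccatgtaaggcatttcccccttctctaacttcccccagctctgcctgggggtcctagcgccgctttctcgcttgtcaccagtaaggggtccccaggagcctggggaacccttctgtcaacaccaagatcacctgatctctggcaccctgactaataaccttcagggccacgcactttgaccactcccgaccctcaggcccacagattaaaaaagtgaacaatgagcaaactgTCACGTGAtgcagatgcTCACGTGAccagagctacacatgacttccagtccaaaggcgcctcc
Mcoln1: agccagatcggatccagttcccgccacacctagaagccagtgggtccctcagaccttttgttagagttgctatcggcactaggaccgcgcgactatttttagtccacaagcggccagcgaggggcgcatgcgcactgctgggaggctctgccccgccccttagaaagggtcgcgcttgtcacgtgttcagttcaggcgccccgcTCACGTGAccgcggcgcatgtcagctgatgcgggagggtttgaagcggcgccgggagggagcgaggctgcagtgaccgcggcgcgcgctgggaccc
Atp6v0d1: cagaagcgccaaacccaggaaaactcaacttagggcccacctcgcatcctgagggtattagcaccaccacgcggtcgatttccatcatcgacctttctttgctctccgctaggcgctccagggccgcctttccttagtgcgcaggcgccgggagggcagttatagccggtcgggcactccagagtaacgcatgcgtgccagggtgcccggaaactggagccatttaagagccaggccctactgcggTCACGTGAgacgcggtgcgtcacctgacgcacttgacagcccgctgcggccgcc

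Autophagy genes and the TFEB family itself moved less evenly, with 3 falls, 3 rises and a median log2 ratio of 0.15 over 28 genes. Optn, a receptor that delivers mitochondria and bacteria to autophagosomes, rose from 127 to 1174 (10.3-fold). Atg7 (2.17-fold) and Atg12 (2.14-fold), 2 components of the conjugation system that builds autophagosomes, also rose. Atg16l1 of the same system fell from 5649 to 1365, Atg9a from 407 to 172, and the transcription factor Mitf from 45748 to 11742. Tfeb (Tcfeb) and Tfe3 (Tcfe3) had log2 ratios of 0.13 and -0.70.

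M2 genes were the list with the highest number of falls. Of the 36 that were measured 19 fell, 4 rose, and the median log2 ratio was -1.23 against 0.09 over all genes. Besides the Ear genes, Fn1, fibronectin, fell from 82689 to 3708 (20.1-fold) and F13a1, the coagulation transglutaminase of macrophages, from 4665 to 475 (8.86-fold). Retnla, the secreted protein RELMα, fell from 399699.7 to 79886 (4.51-fold), and the mannose receptor Mrc1 from 75196 to 25334 (2.68-fold). The galactose-binding lectins Clec10a and Mgl2 fell 5.37-fold and 5.02-fold, the T-cell inhibitory ligand Pdcd1lg2 2.90-fold and the chemokine Ccl24 3.98-fold. These falls were not of a size with those under Torin1. Retnla was not well above background with Torin1, Clec10a and Ccl24 had Torin1 ratios of -6.61 and -6.84 on the log2 scale beside -2.42 and -1.99 after Lamtor1 loss, and Mgl2 stayed within 2-fold (-0.45). Other M2 genes rose. Chi3l4 (Ym2), a chitinase-like protein, rose from 7913 to 30274 (4.24-fold), while Chi3l3 (Ym1), nearly identical to it in sequence, had a log2 ratio of 0.22. Ccl17, a chemokine for T helper 2 cells, rose from 881 to 4845 (6.10-fold) although Torin1 lowered it to 55.4, and Ccl22, which binds the same receptor, was at least 39.3-fold higher. Ch25h, which makes 25-hydroxycholesterol, rose from 681 to 1481 (2.41-fold), and the β-glucan receptor Clec7a 2.04-fold. Il10 was measured on the wild-type array alone and was at least 3.64-fold lower. Of the 23 genes past 2-fold, 15 moved the same way by 2-fold with Torin1, 5 were within 2-fold and 2, Ccl17 and Mmp13, moved the opposite way.

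Components of IL-4 signalling had 2 rises and no fall among 16, a share past 2-fold of 12.5% beside 15.6% of all measured genes. Il4ra, the receptor chain, gave 1218 and 606 (log2 ratio -0.86), Stat6 gave 8374 and 7883 (0.06), and Irf4 and Pparg, transcription factors induced by IL-4, had log2 ratios of -0.75 and 0.43. Il13ra1, the chain that pairs with Il4ra, rose from 45.7 to 186, and the feedback inhibitor Socs3 from 792 to 2384. A STAT6-type element, TTC and GAA set 4 bases apart, was found in 6.97% of all promoters and in 6 of 29 (20.7%) of the M2 list, of which it was in 2 of the 15 with a window that fell (13.3%) and 2 of the 4 that rose.

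Antigen presentation split by class. Of the 8 measured MHC class II genes 7 fell, with a median log2 ratio of -2.51, and all 8 moved the same way with Torin1. H2-Eb1 fell from 305813 to 43291 (6.37-fold), H2-Aa from 88144 to 9630.4 (8.25-fold), and the invariant chain Cd74 from 305659.8 to 45391 (6.07-fold). H2-DMa, which loads peptides onto class II molecules, fell from 20292 to 2081 (8.79-fold), and Ciita, the coactivator on which class II transcription depends, from 402 to 67.3 (5.38-fold). The exception was H2-Oa, an inhibitor of H2-DM, which rose from 59.8 to 111. None of 15 MHC class I genes passed 2-fold, with log2 ratios from -0.12 to 0.72 and a median of 0.43.

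Among receptors for complement, immunoglobulin, lipoproteins and sugars, more fell than rose. In the scavenger, Fc and complement list 16 of 36 fell and 4 rose, with a median of -0.80. The 3 chains of C1q, which starts the classical complement pathway, fell together, C1qa from 110421 to 2361, C1qb from 195562 to 20291 and C1qc from 203674 to 24422. The complement components C3 (2.90-fold) and Cfp (2.68-fold) fell too. Cfb, the factor B of the alternative pathway, fell from 2054 to 129 (14.3-fold) but was 6578 with Torin1 (log2 ratio 2.02). Msr1, a receptor for modified lipoproteins, and Axl, a receptor for dying cells, fell 4.08-fold and 3.18-fold. The 4 rises included receptors and bridges for dying cells. Mfge8, which bridges dying cells to phagocytes, rose from 94729 to 429095 (5.03-fold), the scavenger receptor Colec12 6.12-fold, Tyro3 5.36-fold with another probe at -0.07 on the log2 scale, and the integrin Itgb3 4.02-fold with another probe at 0.28. Of 23 Toll-like and lectin receptors 9 fell and 2 rose (median -0.93). Tlr1 fell from 6679 to 1062 (5.67-fold), and Cd14, the coreceptor of Tlr4, 3.62-fold with a Torin1 ratio of 0.00. The rises were Clec7a (2.04-fold) and Clec4e (Mincle), a receptor for mycobacterial glycolipids, from 451 to 12770.2 (31.4-fold).

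Inflammatory (M1) genes had 8 rises and 4 falls among 24 measured, with a median of 0.33. Beside Nos2 and Clec4e, Acod1 (Irg1), the enzyme that makes itaconate, rose from 2169 to 9949 (5.09-fold), and the lymph-node homing receptor Ccr7 from 112 to 586 (5.83-fold). The first 3 rose with Torin1 too, with log2 ratios of 5.42, 5.01 and 2.43, whereas Ccr7 was at 0.39. Tnf fell from 667 to 164 (3.67-fold), the costimulatory receptor Cd40 3.81-fold, and the iron-sequestering protein Lcn2 7.47-fold. Il6 and Il1a were measured on the Lamtor1-deficient array alone, at least 4.69-fold and 15.1-fold higher, and Il12b, Il12a and Il23a on neither array. The wild-type array alone measured 5 of the list, the formyl peptide receptors Fpr2 and Fpr1, at least 4.33-fold and 3.19-fold lower, Gpr18, at least 2.02-fold lower, and Il1b and Cxcl9, at least 1.82-fold and 1.71-fold lower. Without the filter on dim probes the list had 9 falls, 12 rises and a median of 0.04. Of 20 genes of NF-κB and its feedback, 4 fell and 2 rose. Nfkbie and the phosphatase Dusp1 fell 4.24-fold and 3.68-fold, and Dusp2 rose 6.39-fold.

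Chemokines moved in both directions. Among CC chemokines 6 of 13 rose and 3 fell, and 4 of these 9 went the opposite way by 2-fold with Torin1. The monocyte attractants Ccl2 and Ccl7 rose from 9871 to 20432 and from 8250.3 to 17002 and were 2416 and 2563 with Torin1. Ccl3 rose from 1765 to 9242 and Ccl4 from 1835 to 5083, while their relative Ccl5 fell from 27375 to 9837 and was 158476 with Torin1. Ccl9 fell from 199859 to 40033 (4.50-fold) and the eosinophil attractant Ccl11 rose from 65.1 to 441 (7.51-fold). Among CXC and other chemokines 5 of 10 fell and 4 rose. Cxcl5, a neutrophil attractant, rose from 336 to 9353 (30.9-fold) and was 306 with Torin1, and Cxcl1, of the same kind, from 54.6 to 563 (11.5-fold). Cxcl10, induced by interferon, fell from 218 to 36.9, Pf4 3.93-fold and the scavenger chemokine Cxcl16 3.09-fold. Among the receptors, Ccr2 fell from 1342 to 31.0 and C5ar1 from 10982 to 175. Ccrl2 (4.15-fold), Ccr7 and Cxcr4 (2.03-fold) rose, 6 other receptors were measured on the wild-type array alone and 2 on the Lamtor1-deficient array alone.

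Type I interferon-stimulated genes gave different counts for Lamtor1 loss and for Torin1, a difference that could not be tested with 1 array each. Of 36 genes 35 were measured, 16 fell (45.7%), none rose, and 28 lay below 0, with a median of -0.68. With Torin1 the same 35 genes had a median of 0.45, with 1 fall and 7 rises, a share past 2-fold near the 24.9% of all genes with Torin1. Of the 16 that fell, 11 were within 2-fold with Torin1, 4 moved 2-fold the opposite way and 1, Ifi27l2a, fell with both. Ifi44 fell from 405 to 27.8 (13.1-fold) and was 777 with Torin1. Oas2, an enzyme of the pathway that activates RNase L on double-stranded RNA, fell from 4094 to 368 (10.0-fold) and was 7768 with Torin1. Mx1, an antiviral GTPase, fell from 488 to 42.7 (10.3-fold) with a Torin1 signal of 203. Irf7, which amplifies interferon production, fell from 1151 to 193 (5.37-fold) and Rtp4 from 17584 to 3349.7 (4.73-fold), with Torin1 signals of 1585 and 16773. Ifit3 fell from 656 to 222 (2.66-fold) and was 2844 with Torin1. The list was not uniform, since Ifit2, Rsad2 and Bst2 had log2 ratios of 0.45, 0.55 and 0.69. Guanylate-binding proteins and immunity-related GTPases, induced mainly by interferon-γ, had 2 falls and 2 rises among 10.

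The interferon-stimulated response element, searched as GAAANNGAA on both strands, was in 8.85% of promoters of all measured genes, in 12.2% of those of genes that fell, and in 15 of 23 (65.2%) of the interferon list. Of the genes of that list that fell, 8 had a window and 3 of these held it (37.5%). Among genes that fell with Lamtor1 loss and rose 2-fold with Torin1, 9 of 37 promoters (24.3%) held it. The windows of Ifi44 (chr3:151749861-151750160, minus strand, 1 match) and Ifit3 (chr19:34583279-34583578, plus strand, 3 matches), both from this opposite group, are shown with the matches in capitals, here all as the reverse complement. An absent match says only that these letters are not in this window.
Ifi44: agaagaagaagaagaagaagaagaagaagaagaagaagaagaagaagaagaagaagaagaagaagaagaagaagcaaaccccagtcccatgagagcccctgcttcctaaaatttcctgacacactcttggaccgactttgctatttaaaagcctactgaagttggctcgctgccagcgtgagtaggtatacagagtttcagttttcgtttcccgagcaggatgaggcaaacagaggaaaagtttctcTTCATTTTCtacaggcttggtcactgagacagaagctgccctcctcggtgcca
Ifit3: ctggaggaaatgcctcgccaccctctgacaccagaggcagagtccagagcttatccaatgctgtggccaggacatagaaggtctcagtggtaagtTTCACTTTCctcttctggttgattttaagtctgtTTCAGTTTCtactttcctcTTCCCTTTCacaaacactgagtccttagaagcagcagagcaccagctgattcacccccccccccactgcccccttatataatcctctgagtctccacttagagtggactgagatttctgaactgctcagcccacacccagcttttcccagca

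**Figure D3:**
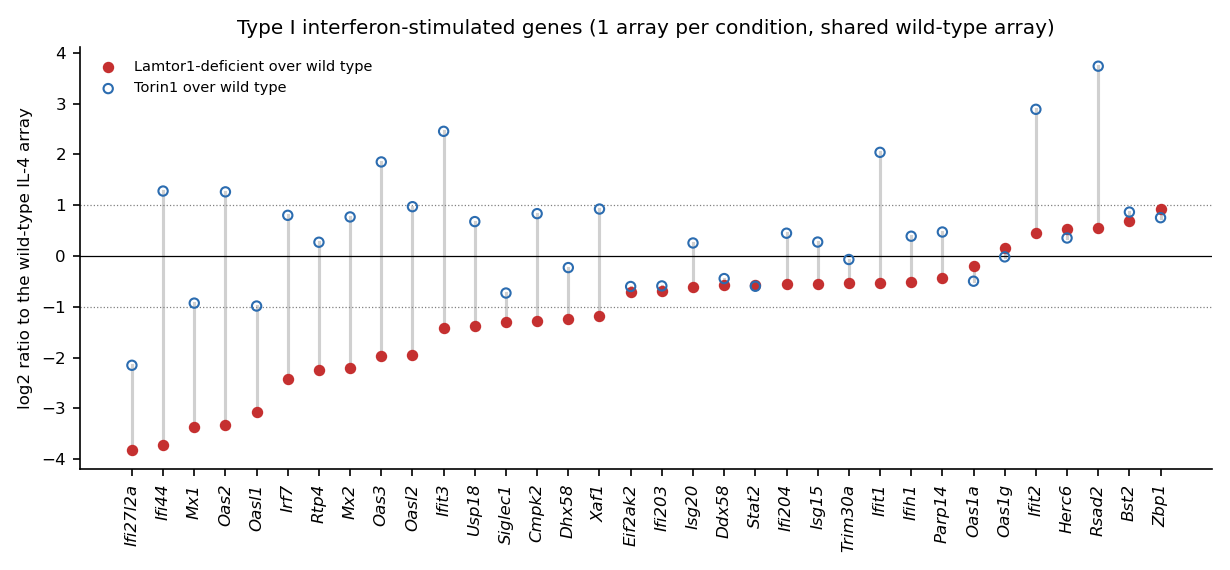
Log2 ratio to the wild-type IL-4 array for 34 of the 35 measured type I interferon-stimulated genes, Lamtor1-deficient in red and Torin1-treated in open blue, with 1 array per condition and the wild-type array shared by both ratios. Genes are ordered by the red value and the dotted lines mark 2-fold. Red points of 16 genes lie at or below the lower line, and the blue circles of 11 of those 16 lie between the lines.

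The counts for Lamtor1 loss and for Torin1 also differed in lipid and sterol synthesis. Of 27 measured genes of cholesterol synthesis 7 rose and none fell, 26 lay above 0, and the median was 0.52. The 7 rises became 2 at 3-fold. With Torin1 17 of the 27 fell, none rose, and the median was -1.41. Of the 7 that rose after Lamtor1 loss, 5 were within 2-fold with Torin1 and 2 moved 2-fold the opposite way. Sc5d, an enzyme near the end of the pathway, rose from 3176 to 11080.3 (3.87-fold) and was 947 with Torin1. Mvd and Fdps, of the mevalonate and isoprenoid steps, rose from 2453 to 7629 and from 11701 to 23980.2, and Lss, which closes the sterol rings, from 619 to 1426. Idi1, of the isoprenoid steps, did not pass, with a log2 ratio of 0.49 beside -4.16 with Torin1. For fatty acids, 7 of 20 genes rose, none fell, the median was 0.72, and 4 of the 7 moved 2-fold the opposite way with Torin1. Scd1, the desaturase that makes oleate, rose from 125 to 2284 (20.3-fold) and was 24.4 with Torin1. Its relative Scd2 rose from 4882 to 24965 (5.67-fold) and was 78.4 with Torin1. Acsl3, which activates fatty acids with coenzyme A, rose from 349 to 1470.4 (4.67-fold), and Acaca and Fasn, the enzymes that build the chain, 2.04-fold and 3.08-fold. Dgat2, which makes triglycerides, rose from 391 to 4250.4 (12.1-fold) and was 99.1 with Torin1. The SREBP genes Srebf1 and Srebf2 themselves had log2 ratios of 0.24 and 0.42. The sterol response element TCACNCCAC was in 1.46% of all promoters and in 4 of 52 (7.69%) of genes that rose with Lamtor1 loss and fell with Torin1, of the cholesterol list in 1 of 19.

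Lipid transport genes fell in part. Of 18 measured targets of LXR, the nuclear receptor for oxysterols, 6 fell, 1 rose and the median was -0.24, while the receptors Nr1h3 and Nr1h2 had log2 ratios of 0.77 and 0.32. Pltp, which transfers phospholipids between lipoproteins, fell from 10693 to 346 (27.9-fold), and the lipase Lpl from 205465 to 10515 (17.6-fold). Abca1, the cholesterol exporter, fell from 7526 to 1745 (3.89-fold), and its relative Abca9 26.3-fold. The apolipoproteins Apoc2 and Apoc1 fell 5.20-fold and 4.60-fold, with Torin1 ratios of -0.62 and -0.12, whereas Apoe and the exporter Abcg1 had log2 ratios of -0.34 and 0.51. Fatty acid oxidation and uptake gave 3 falls and 3 rises among 28, with Fabp4, a fatty acid carrier, rising from 34399 to 167458 and Cpt1a, the gate to oxidation in mitochondria, falling from 12248 to 4452.

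Amino acid supply genes under ATF4 were listed with the tRNA synthetases. Of 39 measured 12 rose (30.8%), none fell, 27 stayed within 2-fold, 37 lay above 0, and the median was 0.72. With Torin1 the median was -0.66, with 16 falls and 3 rises, and 7 of the 12 moved 2-fold the opposite way. Asns, asparagine synthetase, rose from 2409 to 8220.3 (3.78-fold) and was 343 with Torin1. Phgdh, the first enzyme of serine synthesis, rose from 721 to 2893 (4.45-fold) and was 106 with Torin1. Chac1, which degrades glutathione, rose from 165 to 873 (5.88-fold), Trib3, a pseudokinase that inhibits ATF4, 3.14-fold, and Mthfd2, of mitochondrial folate metabolism, 2.85-fold, with Torin1 signals of 40.2, 337 and 27.2. The transporters Slc7a1 and Slc7a5 rose 2.41-fold and 2.53-fold, the latter with another probe at 0.11 on the log2 scale. Gdf15, a stress cytokine, was 1 of 2 genes of the 12 that rose 2-fold with both, from 2287 to 16336 after Lamtor1 loss and to 14289.9 with Torin1. Atf4 had a log2 ratio of 0.99, just short of 2-fold, and the chaperones of the endoplasmic reticulum showed no 2-fold change in 23, where Torin1 lowered 12 and raised 1. The amino acid response element TGATGNAAT was in 0.576% of all promoters and in 4 of 33 (12.1%) of this list, none of them among the 11 that rose and had a window.

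**Figure D4:**
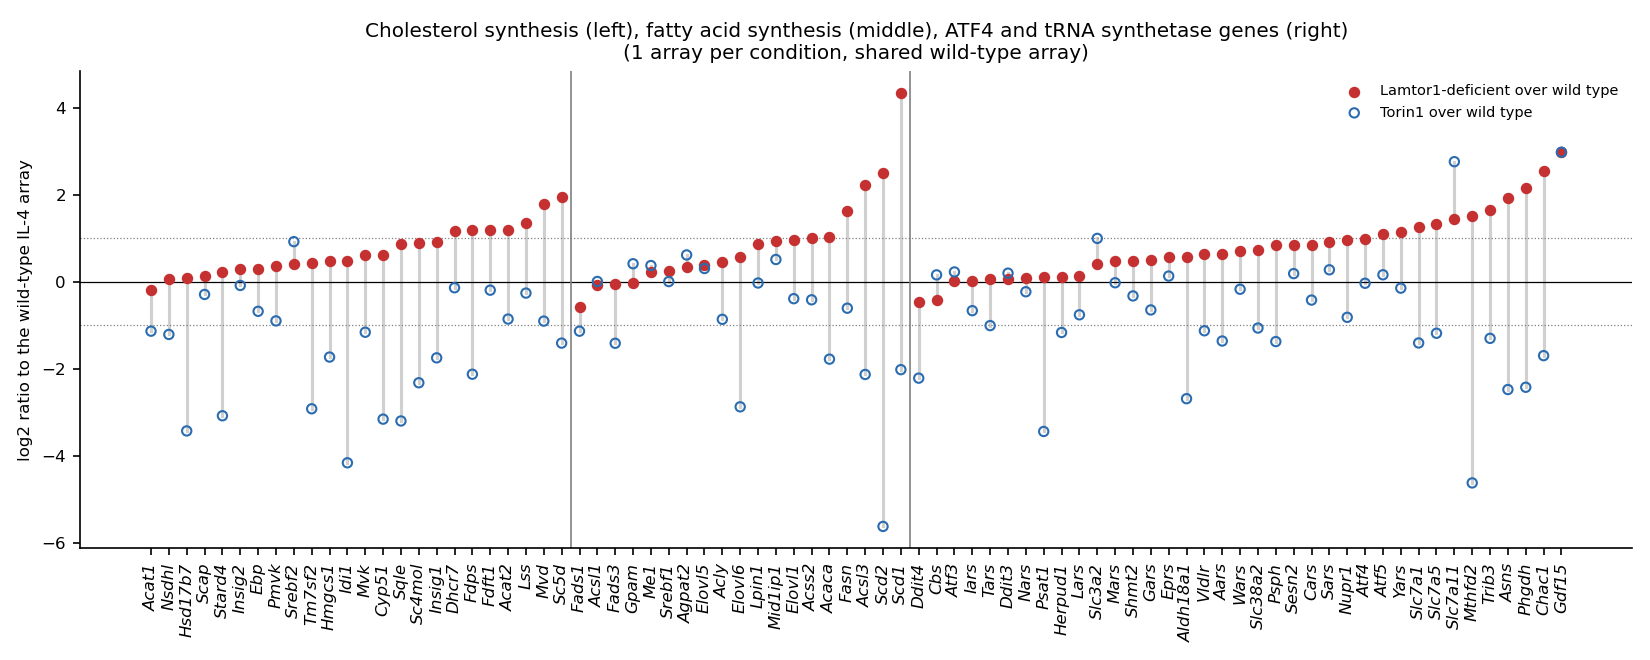
Log2 ratio to the wild-type IL-4 array for 24 of the 27 measured genes of cholesterol synthesis (left) and measured genes of fatty acid synthesis (middle) and the ATF4 and tRNA synthetase list (right), Lamtor1-deficient in red and Torin1-treated in open blue, with 1 array per condition and a shared wild-type array. Genes are ordered by the red value within each list and the dotted lines mark 2-fold. No red point reaches the lower line in any of the lists, and many blue circles lie below it.

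Few genes of ribosome production changed. None of 45 cytosolic ribosomal proteins passed 2-fold (median 0.29). Of 26 genes of Myc and ribosome biogenesis 2 fell and 1 rose, with Myc from 4083 to 1449.5 (2.54-fold) and its antagonist Mxd4 from 7524 to 1652 (4.10-fold) both lower. Among genes of the cell cycle more fell than rose. Of 37 genes of DNA replication 12 fell and 1 rose, with a median of -0.46, and of 35 genes of mitosis 8 fell and 2 rose, with a median of -0.54. The 8 falls in mitosis became 4 with normexp background correction and 2 at 3-fold, and the 12 in replication became 4 at 3-fold. The replicative helicase subunit Mcm5 fell from 4313 to 1074 (3.62-fold), the initiation factor Mcm10 from 732 to 158 (4.17-fold), and the polymerase clamp Pcna from 84529 to 34334 (2.22-fold). Thymidine kinase Tk1 fell 3.46-fold, and in mitosis the spindle protein Nusap1 fell 3.27-fold and the proliferation marker Mki67 from 2530.0 to 1089. Lig1, a DNA ligase, rose from 7593 to 23023 against the rest, and Kif23, of the spindle midzone, from 201 to 574. Cyclin D1 (Ccnd1) fell from 11024 to 1722 (5.77-fold), while among the inhibitors Cdkn1c rose 469-fold and Cdkn1a (p21) fell 2.26-fold with a Torin1 ratio of 0.51.

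In the citric acid cycle 2 of 25 genes rose, Acod1 and pyruvate carboxylase (Pcx, 2.34-fold), a share near the 7.88% of all genes. In glycolysis and the hypoxia response 6 of 34 rose and 1 fell, 20.6% past 2-fold beside 15.6% of all genes. Eno2 rose from 893 to 5013 and Aldoc from 2449 to 11044, the less common forms of enolase and aldolase, and Egln3, an oxygen sensor, from 30.8 to 174, while the common forms Eno1 and Aldoa had log2 ratios of 0.00 and 0.18. Of 25 genes of NRF2, glutathione and iron 4 fell and 1 rose, led by transferrin (Trf), from 211719 to 39439.7 (4.84-fold), and by Hfe (2.78-fold). FOXO targets and insulin feedback had 6 falls and 2 rises among 23, with the pseudokinase Trib1 from 2727 to 157 (15.7-fold) and Pik3ip1, an inhibitor of phosphoinositide 3-kinase, from 174 to 33.5, the latter with a Torin1 ratio of 0.03. Gadd45a and the interleukin 7 receptor Il7r rose 3.12-fold and 3.36-fold.

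Genes by which macrophages act on their surroundings moved in both directions. Eicosanoid and purine signalling had 11 falls and 4 rises among 24 (median -0.48). Pla2g7, which inactivates platelet-activating factor, fell from 55326 to 2843 (17.5-fold) and was 71225 with Torin1, and P2ry6, a receptor for uridine diphosphate, fell from 86479 to 7120.5 (10.9-fold). The leukotriene genes Alox5ap and Alox5 fell 3.72-fold and 2.94-fold, and P2ry2, a receptor for extracellular ATP, rose 5.90-fold. In the extracellular matrix list 7 of 31 fell and 2 rose, with the gelatinase Mmp9 falling from 769 to 32.8 (21.1-fold). Mmp8, Mmp13 and Mmp27 fell as well and moved the opposite way with Torin1, Mmp8 from 699 to 77.7 beside 3066 with the drug. Mmp8 is also a neutrophil marker, and 8 of the 11 measured genes of that list fell. Genes of macrophage fusion had 5 falls and 1 rise among 19, among them the fusion proteins Dcstamp (Tm7sf4), from 14619 to 1395, and Ocstamp (4833422F24Rik), from 14583 to 936. Of 30 cytokines and growth factors 5 fell and 4 rose. Pdgfb, a growth factor for mesenchymal cells, fell from 6343 to 269.9 (21.2-fold) and insulin-like growth factor Igf1 from 121429 to 50719, while Vegfb rose 6.87-fold, Csf1, the macrophage growth factor itself, 2.93-fold and osteopontin (Spp1) 2.72-fold, the last with a Torin1 ratio of -1.12.

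Of the 2180 genes, 1132 moved 2-fold the same way with Torin1, 806 (37.0%) were within 2-fold, 148 moved 2-fold the opposite way, and 94 were not well above background on the Torin1 array. The genes within 2-fold comprised 321 falls and 485 rises. Many of them lay near the limit. For 487 of the 806 the log2 ratios of Lamtor1 loss and Torin1 differed by 1 or more, and 150 falls and 243 rises had a Torin1 log2 ratio within 0.5 of 0. Among this last group the largest falls were Nlrp1a, an inflammasome sensor, from 150537 to 15259.7 with 84386 under Torin1, the chondroitin sulfotransferase Chst3 from 546 to 57.5, and Zmynd15 from 2107 to 261. The glycosyltransferase Galnt9, the lectin Mgl2, the RNA-binding protein Igf2bp2, carbonic anhydrase Car2, the zinc transporter Slc39a4, Rtp4, Pik3ip1, the IκB-like protein Nfkbid and Apoc1 followed, with falls between 4.60-fold and 5.58-fold. The largest rises were Cxcl5, the natural killer receptor genes Klra9, from 56.0 to 1311, and Klra8, from 154 to 3209, and the circadian repressor Cry1, from 44.3 to 999 with 36.4 under Torin1. Cadherin 13 (Cdh13), the kallikrein Klk1b3, the peptide hormone Ghrh, Pdzk1ip1, the receptor Treml2, the tubulin Tubb2b, the acyltransferase Awat1 and the odorant receptor Olfr213 rose between 12.7-fold and 23.3-fold. Many of these have low wild-type signals, and the Klra and Klk1b families contain closely related genes. In the opposite group, Cfb, Ifi44, Oas2 and Mmp8 were joined among the falls by the fatty acid carrier Fabp7, from 629 to 46.4 with 4787 under Torin1, and the glucosidase Mgam, from 235 to 32.7 with 1499. Its largest rises were Scd1, Dgat2, the adipocyte hormone adiponectin (Adipoq), from 380.3 to 3453 with 90.4 under Torin1, and the kallikreins Klk1b24, Klk1b11 and Klk1b8.

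Around Lamtor1 on chromosome 7 (probe start at 109060334 of mm9, the build of the array annotation), more genes passed 2-fold than elsewhere. Within 10 Mb on either side 42 of 156 measured genes did (26.9%), 23 of them lower, compared with 154 of 917 (16.8%) on the same chromosome beyond 20 Mb and 1965 of 12817 (15.3%) on the other chromosomes. The share on whole chromosomes ranged from 9.74% to 20.6%, the highest being chromosome 6. With Torin1, 27.8% of the genes within 10 Mb and 24.8% on other chromosomes passed 2-fold. Neighbours of several kinds changed. The folate receptor Folr2, at -0.072 Mb from the Lamtor1 probe, fell from 28972 to 1421 (18.4-fold) and the transporter Slco2b1, at -2.25 Mb, from 1856 to 65.2 (25.7-fold), both also lower with Torin1. On the other side of Lamtor1, at 2.35 Mb (Trim34a), 2.39 Mb (Trim12a) and 2.56 Mb (Trim30d), lie TRIM genes, a family of ubiquitin ligases with antiviral members. Trim12a gave 5399 on the wild-type array, 5527 with Torin1 and 25748 on the M1 array, but 4.93 on the Lamtor1-deficient array, where the probe was not well above background. Trim34a fell from 2087 to 212 (8.85-fold, another probe at -1.16 on the log2 scale) with 2389 under Torin1. Trim30d fell from 3684 to 1113 with 3159 under Torin1. These 3 stayed within 2-fold with Torin1. Their neighbours differed, since Trim30a, at 2.50 Mb, had a log2 ratio of -0.54, and Trim30c, at 2.47 Mb, was measured on the Lamtor1-deficient array alone, at least 3.23-fold higher. Olfr629, an odorant receptor gene at 1.83 Mb, rose from 72.2 to 1332 (20.5-fold). Some genes described above by pathway also lie near Lamtor1. P2ry6, which fell, is at -0.97 Mb, and P2ry2, Dgat2 and Smpd1, which rose, are at -0.91, -2.76 and 3.65 Mb. The part of the chromosome segment that came with the targeted allele in these values was not tested.

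**Figure D5:**
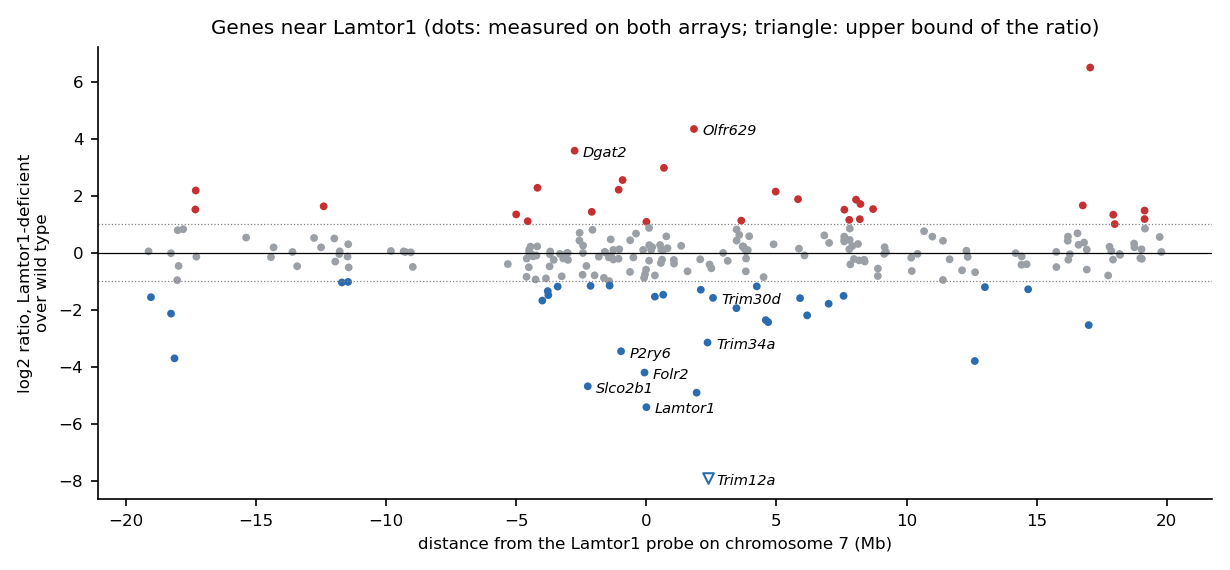
Log2 ratio of the Lamtor1-deficient over the wild-type array against the distance in Mb from the Lamtor1 probe on chromosome 7, for genes measured on both arrays (1 array per condition), blue where 2-fold lower and red where 2-fold higher. The open triangle is the upper bound of the ratio of Trim12a, whose probe was dim on the Lamtor1-deficient array. Within 10 Mb of Lamtor1, 42 of 156 genes lie at or beyond the dotted 2-fold lines.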

How the data were processed

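Total RNA of each culture was labelled with Cy3 and hybridised to an Agilent whole mouse genome array in 1 colour. The authors deposited scanner files whose intensities were background-subtracted by Feature Extraction (version 10.7.3.1 in the file headers, 10.5.1.1 in the submitters' processing notes) and were not normalized between arrays. Control spots and outlier-flagged spots were left out, signals under 1.0 were raised to 1.0 as in the study's methods, spots of a probe were averaged, log2 was taken and each array was shifted to its 75th percentile over 55681 probes. Probes well above background made up 51.7% on the wild-type, 50.9% on the Lamtor1-deficient and 55.4% on the Torin1 array, and no spot was saturated. Precision is limited by the number of arrays. A gene was read by its brightest probe over the 2 arrays compared. Where a probe was well above background on 1 array, the bound was taken against the lowest such signal on the other (21.6, 20.1 and 15.7 in the same order) or the dim probe's own signal, whichever was higher after the shift. Of the 23333 gene names, 21888 matched a RefSeq symbol or synonym.

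The named genes were Lamtor1, the 15 largest falls and rises, the 12 largest in each direction with a Torin1 log2 ratio under 0.5 in size, the 6 largest in each direction in the opposite group, up to 4 per list and direction, the 5 largest bounds in each direction and those at the limit, without clone-like names. Some genes, a few of which met this rule, are not reported here. Genes named beyond this rule were chosen after their values were seen. Members, lists and rules were chosen with earlier results of these data known. The procedure was tested on simulated data. Alternatives were other shifts, quantile normalization, normexp with an offset of 50 (limma 3.58.1 in R 4.3.3), outlier spots kept, the median over a gene's probes, the series' value table (which differed by at most 0.497%), no filter on dim probes and a 3-fold limit. Ratios were computed in Python 3.11.15 with pandas 2.3.3.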

Additional observations from a re-analysis of the deposited data

How the results depend on the processing

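No paired analysis was possible because each condition had 1 array, and for the same reason no array could be left out. Without the filter on dim probes, 4130 genes passed 2-fold, 2033 lower and 2097 higher, with 1707 of them within 2-fold with Torin1 and 290 opposite. At 3-fold the counts were 1018, 526, 492, 399 and 24. Normexp background correction left 68 opposite genes in place of 148 and 1670 changed genes in all, 1664 of them among the 2180. A Torin1 log2 ratio under 0.5 in size left 393 genes in place of 806. All other counts over all genes stayed within 1.5 times. Counts within single lists moved further in 3 cases under normexp, where mitosis had 4 falls in place of 8, fatty acid synthesis 4 rises in place of 7 and the Ragulator list 3 rises in place of 5, in 7 cases without the filter on dim probes and in 20 at 3-fold. No gene of the lists past 2-fold and none of the largest falls and rises changed direction where an alternative measured it. The share of higher genes among those past 2-fold ran from 45.3% to 54.9% over the shifts, against 50.5%, and the median of all genes from 0.02 to 0.15. The median log2 ratio changed sign under at least 1 alternative for the lists of IL-4 receptor signalling, chemokine receptors, fatty acid oxidation, glycolysis, cyclin-dependent kinase inhibitors, cytokines, matrix, fusion, lymphocytes, dendritic cells and housekeeping. Their counts of falls and rises are given above, and they show no direction of the list as a whole. Genes near background are limited by signal, with a technical standard deviation of a log2 ratio of 0.275 for dim probes.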

Other observations

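The gene groups below were put together after their values had been seen, and they are given as descriptions. Of 28 genes associated with fat cells, 19 were measured on both arrays, 10 were higher in Lamtor1-deficient BMDMs, 3 were lower, and the median log2 ratio was 1.08. Besides Rbp4, Sfrp5, Mgll, Scd1, Dgat2, Fabp4 and Adipoq, the rises included the glucose transporter Slc2a4, from 30.0 to 91.6, Fasn, from 52.9 to 147, and the triglyceride lipase Pnpla2, from 17648 to 33692. The group was not uniform. Lpl, Gpd1 (from 2521 to 1001) and the hormone-sensitive lipase Lipe (from 158 to 67.8) were lower, Retn was at least 65.8-fold lower, and leptin (Lep), adipsin (Cfd) and perilipin 1 (Plin1), which define fat cells, were well above background on neither array. Whether other cells in the culture had a part in these values was not tested.

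The mouse has a cluster of Klk1 and Klk1b kallikrein genes, serine proteases made mainly in salivary gland. All 9 members measured on both arrays, Klk1 and 8 Klk1b genes, were higher in Lamtor1-deficient BMDMs, with a median log2 ratio of 3.24, and 5 more were measured on the Lamtor1-deficient array alone. Klk1b22 went from 269.7 to 5183 and was 114 with Torin1, and Klk1b27 was at least 39.7-fold higher. With Torin1 4 of the 9 were 2-fold lower and none higher, while Klk1b26 and Klk1b5, not well above background on the wild-type array, were well above background at 68.9 and 44.1. Over the 91 pairs of all 14 genes, probe sequences matched at 33.3% to 90.7% of aligned bases with a median of 40%. Klk1b27 matched Klk1b11 at 90%, and whether a single transcript feeds several of the signals was not tested. Among 16 Klra (Ly49) genes on the array, receptors of natural killer cells, 3 of the 4 measured on both arrays were higher and 7 were measured on the Lamtor1-deficient array alone, among them Klra17 at 252, at least 12.9-fold higher.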
